A study of Mus musculus with 24 samples.

Results

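Protein interaction profile sequencing (PIP-seq) maps the stretches of RNA that are shielded from a nuclease by bound proteins, here called protein-protected sites (PPSs). The cells were MEL cells, a mouse erythroleukemia line blocked at an early erythroid stage, sampled before induction (day 0) and at day 2 and day 4 of culture with 2% DMSO, the agent that induces them to differentiate. Every day was represented by 8 libraries from 2 biological replicates, 24 in all. All cells were crosslinked with formaldehyde. Each replicate was digested with a nuclease for single-stranded RNA (ssRNase) or one for double-stranded RNA (dsRNase), either while proteins were still on the RNA or after they had been removed. MEL cells are a transformed line in suspension culture, so they model part of erythroid maturation only. The sites described here were listed at day 2 and on no other day, with calls of both replicates. The lists give the span of a merged PPS and the names of its calls, so calls of both replicates inside a PPS need not overlap each other. They were selected on the measured calls: a PPS of the day 2 list, not 20 to 40 nt long (the length class of ribosome footprints), merged from calls of both replicates, and sharing not 1 nt on its strand with any PPS of the day 0 or day 4 list. Of 169575 PPSs in the day 2 list, 36787 were replicated and outside the ribosome size class, and 5226 of these met the rule. That was 14.2% of the replicated day 2 PPSs (Wilson 95% interval 13.9 to 14.6). The remaining 31561 replicated day 2 PPSs overlapped a PPS of another day and are called the other replicated PPSs below.

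RNA-binding proteins accompany a transcript from splicing through export, translation and decay, and introns are covered by splicing regulators and hnRNPs before they are removed. In red cell development, transcription falls as the nucleus condenses, so that control of RNAs already made by bound proteins takes a large part. A site present at an intermediate stage only may be a passing interaction or a transcript present for a short time. PPS lists cannot separate the 2, because a site is called only where its RNA is abundant enough, and abundance was not measured in these files. The labelled cell type was checked through the transcripts that carried PPSs. At day 2, 9 of 11 erythroid marker genes held a PPS, and none of 3 T cell, 2 B cell, 5 myeloid and 1 hepatocyte markers did.

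The sequences of several day 2 only sites are shown first, because they were either supported by every call set or lay in the genes richest in such sites. They are given 5′ to 3′ on the transcribed strand, mm10 build. Capitals mark the G-rich words GGTG, GTGTG and GGGG wherever they occurred. The site of Ticrr, a gene needed to fire replication origins, lay at chr7:79695389-79695535 on the plus strand in coding sequence.
Ticrr: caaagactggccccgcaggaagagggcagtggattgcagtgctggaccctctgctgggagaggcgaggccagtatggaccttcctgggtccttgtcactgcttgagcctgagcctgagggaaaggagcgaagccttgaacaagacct
The site of Eif4a3, the helicase that anchors the exon junction complex, lay at chr11:119299882-119299980 on the minus strand in coding sequence.
Eif4a3: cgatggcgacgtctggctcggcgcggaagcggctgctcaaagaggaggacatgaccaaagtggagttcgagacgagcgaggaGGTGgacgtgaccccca
The site of Sh3bgrl, which encodes a small adaptor-like protein, lay at chrX:109108261-109108345 on the plus strand in an intron.
Sh3bgrl: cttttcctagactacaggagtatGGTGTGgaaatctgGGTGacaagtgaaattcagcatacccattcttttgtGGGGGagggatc
The site of Usp9x, a deubiquitinase, lay at chrX:13081216-13081270 on the plus strand in an intron.
Usp9x: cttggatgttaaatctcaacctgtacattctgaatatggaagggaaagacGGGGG
The site shown for Slc25a21 lay in an intron at chr12:57133523-57133774 on the minus strand. It was not the highest-scoring site of the gene, which scored 35.64 and held none of the marked words.
Slc25a21: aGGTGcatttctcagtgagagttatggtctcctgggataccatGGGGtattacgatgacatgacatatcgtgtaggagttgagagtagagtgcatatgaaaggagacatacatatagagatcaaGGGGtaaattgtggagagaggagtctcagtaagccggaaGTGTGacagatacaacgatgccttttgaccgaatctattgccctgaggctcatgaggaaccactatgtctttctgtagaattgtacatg
The last site shown lay in an intron of Bcl2, which encodes an inhibitor of apoptosis, at chr1:106694131-106694209 on the minus strand.
Bcl2: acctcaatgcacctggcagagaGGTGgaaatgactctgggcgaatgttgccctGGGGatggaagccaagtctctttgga

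The number of sites on 1 day only was examined first. The same rule applied to the other lists gave 5123 of 35371 replicated PPSs at day 0 (14.5%) and 6317 of 43631 at day 4 (14.5%). Day 2 was therefore not richer in such sites than its neighbours. Of the other replicated day 2 PPSs, 19219 overlapped a PPS of both days, 5213 one of day 0 but not day 4, and 7129 one of day 4 but not day 0. The number depended on how absence was defined. When only replicated PPSs of day 0 and day 4 could exclude a site, 16834 day 2 PPSs (45.8%) qualified. The added sites met PPSs of day 0 or day 4 that were called in 1 replicate only. Without replicate 1 or replicate 2 at day 2, so that a single replicate sufficed, 23783 and 18816 sites qualified.

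Day 2 only sites were shorter and scored lower. Both measures are linked to the rule, since a longer site has more nucleotides that can meet a PPS of another day, and are given as a description. Their length ranged from 12 to 481 nt with a median of 63 nt, against 76 nt for the other replicated PPSs. Their score, the authors' enrichment value, ranged from 10.8 to 52.1 with a median of 14.95, against 19.13. The score of a merged PPS appears to be the sum over its calls, which is read from its lowest values and is not stated in the sources, so scores also follow the number of calls. The same order held at day 0 (72 against 86 nt) and at day 4 (68 against 84 nt). The share of replicated PPSs that were day 2 only was 23.9% at 41 to 50 nt, 15.3% at 61 to 80 nt, 6.85% at 101 to 150 nt and 1.75% above 150 nt. It was 17.5% of PPSs merged from 2 calls, 6.82% from 3 calls and 2.57% from 4 calls. At the length limit, 94 sites measured 41 nt, while 93 of the 357 replicated PPSs of 40 nt met no PPS of another day and were left out. In all, 713 of 2530 replicated PPSs of 20 to 40 nt met none.

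Most sites had a PPS of another day within 1000 nt on their strand. Distances from other positions of the same transcripts were not taken, so these values are a description. The median distance to the nearest day 0 or day 4 PPS on the same strand was 261 nt, and the middle 50% lay between 66 and 920.5 nt. There were 32 sites that touched such a PPS end to end and 315 with 10 nt or less between. A total of 1096 sites (20.97%, 19.9 to 22.1) lay within 50 nt, and 1233 (23.6%, 22.5 to 24.8) lay more than 1000 nt away. The nearest PPS was of day 0 for 2419 sites and of day 4 for 2706. Just outside the rule, 35 of the other replicated PPSs shared only 1 nt with a PPS of another day. On the opposite strand, 53 sites faced a day 0 or day 4 PPS.

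**Figure D1:**
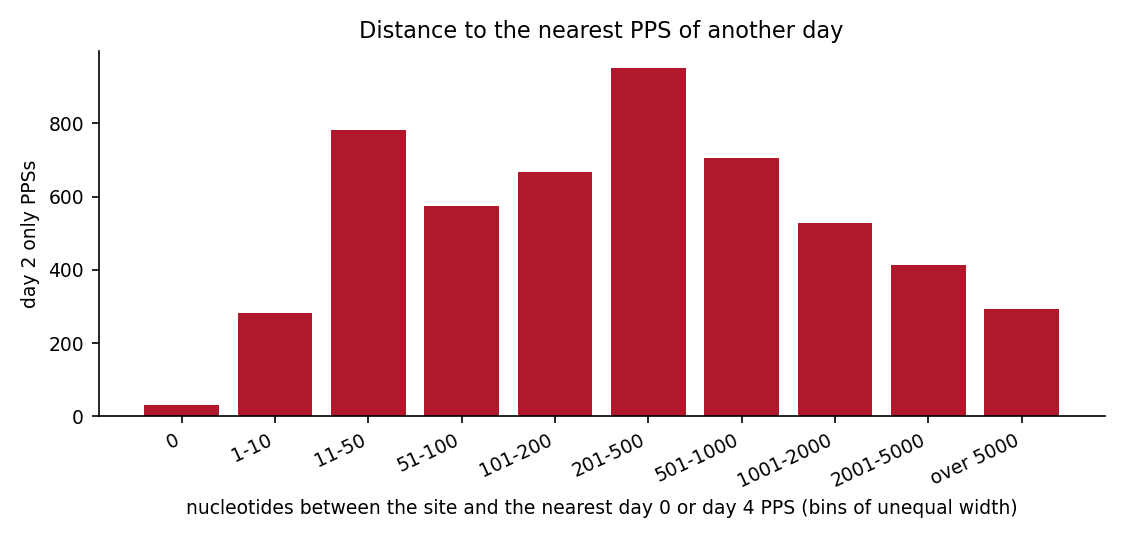
Number of the 5226 day 2 only PPSs (vertical axis) by the nucleotides between the site and the nearest PPS of day 0 or day 4 on the same strand (horizontal axis, bins of unequal width). The tallest bin, 201 to 500 nt, holds 951 sites, 32 sites touch a neighbour and 292 lie over 5000 nt away.

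The nuclease behind each site was read from the names of the merged calls, which gave 4 call sets a day (2 nucleases by 2 replicates). Sites called by ssRNase alone made up 3366 of the 5226 (64.4%), against 51% of the other replicated PPSs, a difference of 13.4 percentage points (Newcombe 95% interval 11.99 to 14.8). Calls of both nucleases stood behind 1630 sites (31.2% against 42.3%, difference -11.1 points). Calls of dsRNase alone stood behind 230 (4.40% against 6.70%, difference -2.30 points). Among PPSs of 41 to 80 nt the ssRNase-only difference was 9.03 points (7.36 to 10.7). A PPS with 3 or 4 call sets holds both nucleases by definition, and such PPSs were less frequent among day 2 only sites. Both ssRNase sets with dsRNase replicate 1 made up 5.59% against 12.1%, and all 4 sets 0.421% against 3.55%. Of the mixed pairs, ssRNase replicate 2 with dsRNase replicate 1 made up 17.9% against 12.6%, and the converse 3.88% against 3.91%. The part of the number of call sets in these differences was not tested. The 2 replicates had the same direction for dsRNase: a dsRNase call of replicate 1 was present in 30.02% of day 2 only sites and 39.2% of the others, and one of replicate 2 in 12.1% and 24.3%. For ssRNase they did not, with 76.6% against 78.4% in replicate 1 and 91.1% against 87.5% in replicate 2. The direction of the dsRNase-only difference turned to 5.30 points when replicate 2 of day 2 was left out and a single replicate sufficed. Intervals here and below cover counting error only, PPSs of 1 transcript are not independent, and PPSs are not replicates, so no p-value is given.

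Call sets differed in size between days, which touches every comparison of nucleases. Outside 20 to 40 nt, the day 2 list held 51965 and 73952 PPSs with ssRNase calls of replicate 1 and 2, and 30485 and 14832 with dsRNase calls. At day 4 the numbers were 47625 and 48112 for ssRNase and 54935 and 40195 for dsRNase. At day 0 they were 56044 and 50995 for ssRNase and 27862 and 32624 for dsRNase. Replicate 2 of day 2 thus had the most PPSs of any replicate with ssRNase calls and the fewest with dsRNase calls. The part that this balance has in the nuclease shares was not tested. Sites found on day 0 only shared the direction of day 2 in part. They had dsRNase calls in 37.4% against 39.7% in replicate 1 and 43.9% against 46.2% in replicate 2, and ssRNase calls alone in 44.3% against 40.7%. Calls of dsRNase alone differed in the direction opposite to day 2, at 19.0% against 14.2% (difference 4.81 points, 3.68 to 5.97). So did ssRNase calls of replicate 2, at 64.7% against 72.1%. Sites found on day 4 only differed from those of day 2 in the direction of dsRNase calls. These were more frequent in them than in the other replicated day 4 PPSs in replicate 1 (65.1% against 58.6%) and in replicate 2 (56.5% against 49.7%). The lower share with calls of both nucleases was common to all days, at 36.7% against 45.0% at day 0 and 43.8% against 52.6% at day 4.

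The commonest make-up was 1 call per replicate, for 4666 sites (89.3%). It was also the commonest among all replicated day 2 PPSs, at 26735 of 36787. The combination of ssRNase in replicate 2 with dsRNase in replicate 1 gave 935 sites, and the converse gave 203, so that 78.2% of the sites had the same nuclease in both replicates, against 83.5% of the others. Day-only sites had the same nuclease in both replicates less often at day 0 (79.8% against 85.0%) and day 4 (75.5% against 84.1%) too. All 4 call sets stood behind 22 sites (0.421%), against 3.55% of the others.

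**Figure D2:**
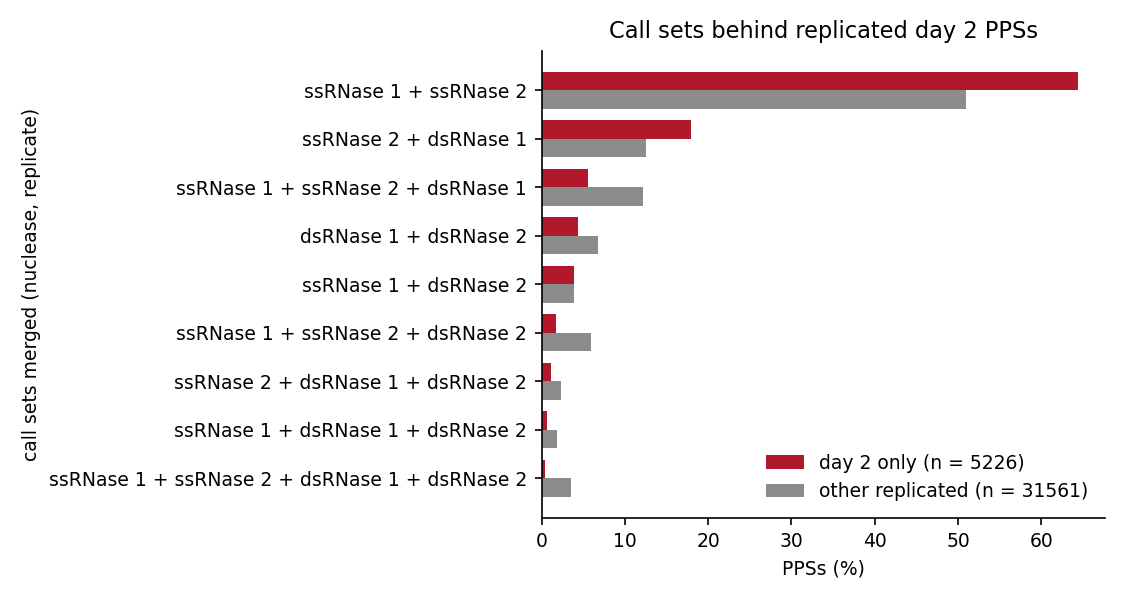
Share of PPSs (horizontal axis, %) by the set of calls merged into them (vertical axis, nuclease and replicate number), for the 5226 day 2 only PPSs (red) and the 31561 other replicated day 2 PPSs (grey). The ssRNase pair leads both groups, at 64.4% and 51%, and sets of 3 or 4 calls are less frequent in red.

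Sites were assigned to annotation classes greedily, so that one which touched several classes was counted in each. Day 2 only sites lay in coding sequence less often and within introns more often than the other replicated PPSs. Coding sequence was touched by 1459 sites (27.9%, against 35.3%), a difference of -7.36 points (-8.67 to -6.02). Sites lying wholly within introns numbered 2466 (47.2%, against 39.2%), a difference of 7.96 points (6.51 to 9.42). Noncoding exons were touched by 21.4% against 28.6%. The 3′ UTR was touched by 769 sites (14.7% against 16.0%) and the 5′ UTR by 262 (5.01% against 5.95%), differences of -1.32 and -0.93 points. An annotated exon end fell inside 322 sites (6.16% against 11.4%). Sites antisense to a gene (2.41% against 2.11%) and sites with no gene on either strand (4.88% against 4.55%) differed by 0.30 (-0.11 to 0.78) and 0.33 points (-0.27 to 0.99), intervals that include 0.

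Among PPSs of 41 to 80 nt, coding sequence differed by -7.08 points (-8.64 to -5.48) and whole introns by 6.70 points (4.98 to 8.42), while the 5′ UTR difference was -0.23 points (-0.91 to 0.51). With replicated PPSs alone excluding, the coding difference was -1.79 points and the whole-intron difference 5.28 points. Both ssRNase call sets gave the same direction, with coding differences of -7.83 and -7.20 points in replicates 1 and 2. The dsRNase call sets were split, at -5.23 points in replicate 1 and 3.81 points in replicate 2. The whole-intron difference was 8.16 and 7.13 points in the ssRNase call sets, 7.06 points in dsRNase replicate 1 and -0.57 points (-3.61 to 2.82) in dsRNase replicate 2. By nuclease class, the coding difference was -5.59 points for ssRNase-only PPSs, -4.44 points for those with calls of both nucleases and 3.32 points (-3.40 to 9.63) for the 230 dsRNase-only sites, which counting error does not separate from 0. The class pattern was shared by the other days. Day-only sites differed from the other replicated PPSs of their day by -6.59 points in coding sequence at day 0 and by -10.97 points at day 4, and by 6.68 and 7.73 points in whole introns.

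**Figure D3:**
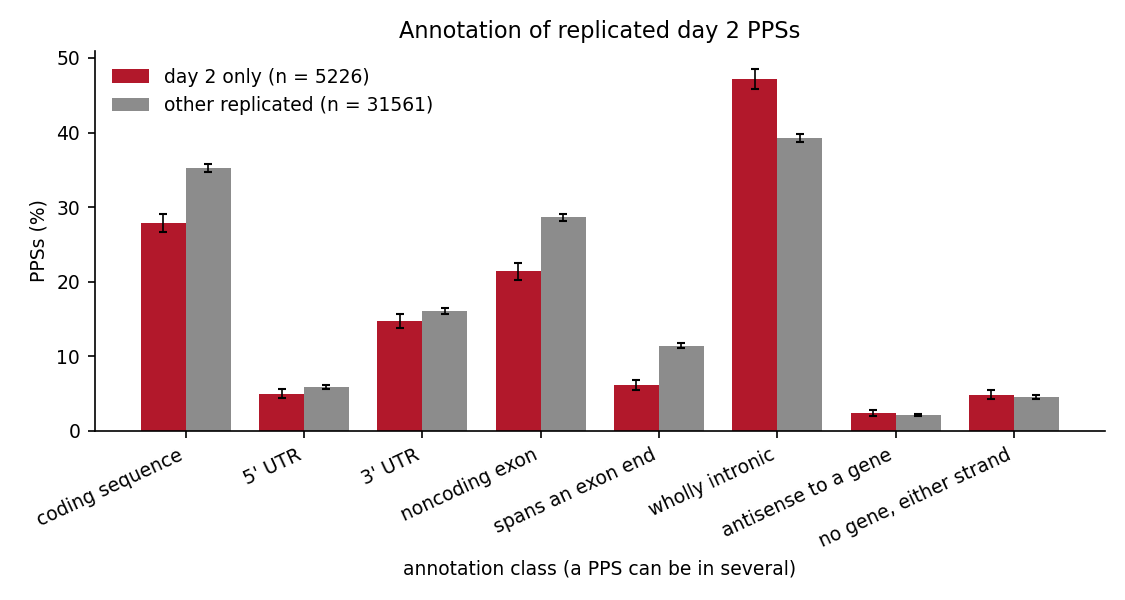
Share of PPSs in each annotation class (vertical axis, %; horizontal axis, class, with a PPS counted in every class it touches) for the 5226 day 2 only PPSs (red) and the 31561 other replicated day 2 PPSs (grey). Bars are shares and whiskers Wilson 95% intervals, with coding sequence at 27.9% and 35.3% and whole introns at 47.2% and 39.2%.

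The mean A content was 25.8% in day 2 only sites and 27.0% in the others, C was 19.7% and 19.1%, T was 25.3% and 24.7%, and G was 29.2% and 29.1%. The G difference was not the same for each nuclease, at 2.83 points (1.97 to 3.70) within dsRNase-only PPSs and -0.38 points (-0.61 to -0.16) within ssRNase-only PPSs. Short words were searched on the transcribed strand only. All 11 words searched were less frequent in day 2 only sites over all lengths, which are shorter, so words were compared again at 41 to 80 nt. There, GTGTG was present in 11.4% of day 2 only sites and 10.2% of the others (difference 1.23 points, 0.17 to 2.35). GTAAGT, the letters of a strong 5′ splice site after the exon, was in 1.497% and 2.29% (difference -0.79 points, -1.20 to -0.31), in the same direction as the exon ends above. A run of 6 A was in 0.863% and 1.25%. The intervals of the other 8 words included 0. These were the G-rich words GGTG and GGGG, a run of 6 T, the word TATTTAT of AU-rich elements, the Pumilio-type word TGTANA, the splice-site word AGGTAAG, the C-rich word CCNCC, and the repeat word CACAC. At least 1 of the 3 G-rich words marked in the sequences above was in 40.5% of day 2 only sites of 41 to 80 nt and in 38.6% of the others.

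Most sites lay in genes that were protected on all days. On the strand of a gene lay 4845 sites (92.7%), in 3072 host genes, which was 41.3% of the 7443 genes with a replicated day 2 PPS. Of the host genes, 2924 were protein-coding and 39 lincRNA genes, and 2794 (91.0%) also held PPSs at both day 0 and day 4. In 95 host genes neither other day had a PPS. A single site was found in 2043 host genes, 617 held 2, 111 held 5 or more and 15 held 10 or more. Sites confined to day 0 were present in 986 host genes (32.1%), to day 4 in 1282 (41.7%), and 447 host genes (14.6%) held sites of each kind. No such shares were taken for the other genes, which held fewer PPSs of 1 replicate on average (below), so these counts are a description. PPSs called in 1 replicate only cannot be day 2 only sites themselves, but those of day 0 and day 4 took part in the exclusion, so their numbers are a description. They were most numerous at day 2 in 1008 host genes (32.8%, 31.2 to 34.5) and in 886 of the 4371 other genes (20.3%, 19.1 to 21.5). Their mean number per host gene was 13.6, 15.1 and 14.0 at days 0, 2 and 4, and 6.75, 6.37 and 6.50 in the other genes. Exonic coverage, the share of exonic nucleotides inside a PPS, was highest at day 2 in 791 protein-coding host genes (27.1%) and in 714 of 3721 others (19.2%). It counts the selected sites themselves.

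Slc25a21, which encodes a carrier of oxodicarboxylates across the inner mitochondrial membrane, held the most day 2 only sites. There were 35, which was 42.7% of its 82 replicated day 2 PPSs, with none on day 0 only and 9 on day 4 only. The number of its PPSs outside 20 to 40 nt with a call of replicate 1 and of replicate 2 was 29 and 20 at day 0, 148 and 187 at day 2, and 100 and 74 at day 4. Both replicates were thus lowest at day 0 and highest at day 2. The gene was chosen for its day 2 only sites, which are among these counts, and without them day 2 had 113 and 152. By call set, ssRNase gave 26 and 13 PPSs at day 0, 111 and 179 at day 2 and 48 and 59 at day 4, while dsRNase gave 4 and 10, then 58 and 17, then 62 and 28. With the selected sites counted, the numbers rose to day 2 with each nuclease and fell to day 4 with ssRNase only. The selected sites were not taken out by call set, so the rise without them is not known by nuclease. Of the 35 sites, 33 lay wholly within introns, 14 had ssRNase calls only and 21 calls of both nucleases. They lay from 9.80 to 483.7 kb after its start in a gene of 484.8 kb, with a median at 76.8 kb, so they were denser towards the start. The site whose sequence is given above scored 28.96, and the nearest PPSs of day 0 and day 4 were 2253 and 195 nt away.

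Smyd3, a protein lysine methyltransferase gene, followed with 16 of 70 replicated PPSs. Its replicates gave 46 and 30 PPSs at day 0, 132 and 166 at day 2, and 118 and 104 at day 4, and without the 16 selected sites day 2 had 116 and 150, overlapping day 4. All 16 were intronic. Med13l, a subunit of the Mediator kinase module, also held 16, of 77, of which 10 were wholly intronic and 3 touched coding sequence. Its replicates gave 80 and 106, 136 and 164, and 150 and 122 PPSs at days 0, 2 and 4, with days 2 and 4 overlapping. Bcl2 held 15 of 88, 13 of them intronic. Its counts of 151 and 102, 157 and 185, and 110 and 124 at days 0, 2 and 4 became 142 and 170 at day 2 without its selected sites, overlapping day 0.

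Several host genes held fewer PPSs at day 4 than at day 0 in both replicates. Pola1, the catalytic subunit of the polymerase that primes DNA synthesis, held 14 of 45, all intronic. Its PPSs per replicate were 89 and 68, 87 and 87, and 31 and 18. Days 0 and 2 overlapped, and day 4 was below both. Cenpp, a protein of the inner kinetochore, held 11 sites, with PPSs per replicate of 23 and 14, 34 and 40 (23 and 29 without the selected sites), and 1 and 1. Cdk1, the kinase that drives entry into mitosis, held 5, with 15 and 10, 16 and 21, and 2 and 2. Without the selected sites its day 2 counts were 11 and 16, overlapping day 0. Zfp935, a zinc finger gene, held 12 of 27, with 31 and 28, 39 and 47 (27 and 35 without the selected sites), and 13 and 9. Some of its sites lie in the overlapping gene Zfp934 as well and cannot be given to either.

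Other genes rich in such sites were long and protected throughout. Lrmda, a leucine-rich repeat gene named for melanocyte differentiation, held 19 of 367, a share of 5.18% and below the 14.2% of all replicated PPSs. It also held 66 sites confined to day 0, and its PPSs per replicate were 868 and 952, 599 and 715, and 637 and 489. Runx1, a transcription factor of blood stem and progenitor cells, held 14 of 136, with 262 and 225, 241 and 265, and 238 and 230 PPSs, which overlapped on all days. With 2 replicates a day no test of these counts was made, and the replicates of a day share merged PPSs. A count of PPSs also moves with transcript level and library depth, whose part was not tested.

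**Figure D4:**
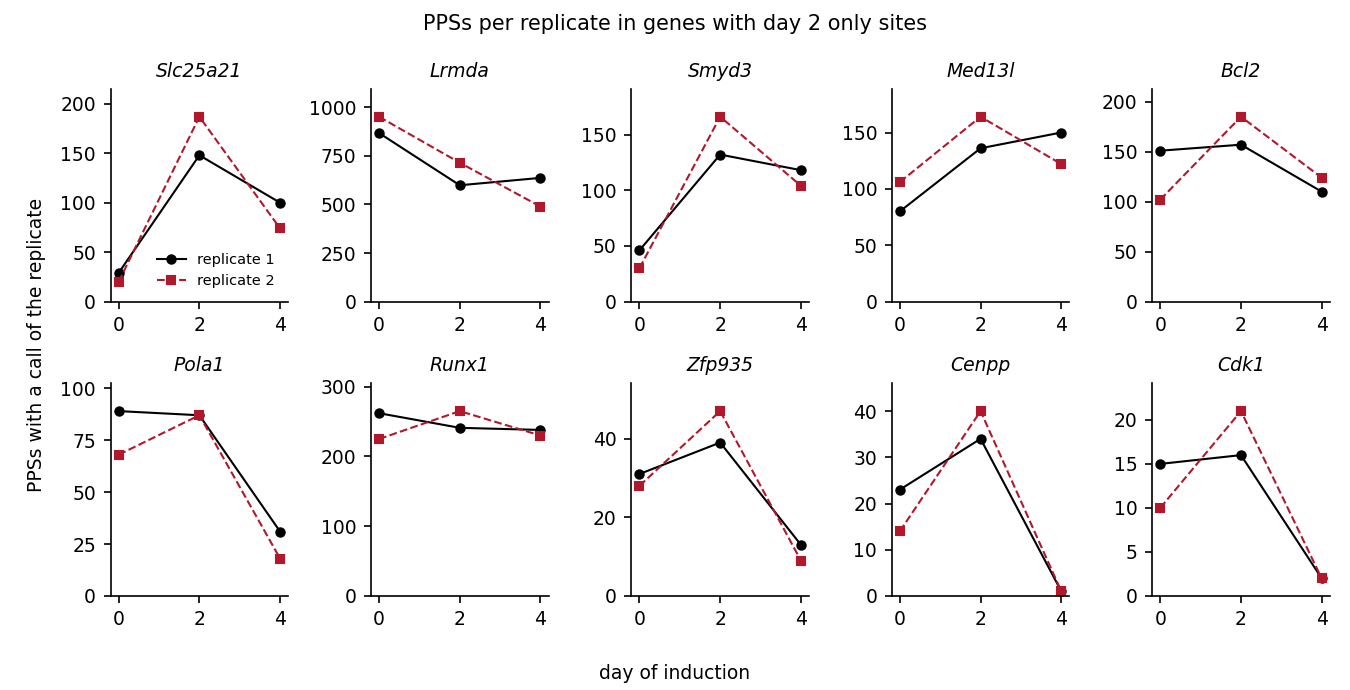
Number of PPSs outside 20 to 40 nt that hold a call of replicate 1 (black circles) or replicate 2 (red squares) at days 0, 2 and 4 of induction, in 10 genes with day 2 only sites, which are included in the day 2 counts. The vertical axes start at 0 and differ between genes, and Slc25a21 and Smyd3 rise to 148 and 187 and to 132 and 166 at day 2, whereas Cenpp falls to 1 and 1 at day 4.

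The strongest sites were mostly exonic. The highest score, 52.1, was at the start of Slc39a8, a zinc and metal transporter gene, in a site of 177 nt over its 5′ UTR and coding sequence, with ssRNase calls of both replicates and a dsRNase call of replicate 2. PPSs of day 0 and day 4 lay 25 and 26 nt away. The Ticrr site scored 49.02 from 6 calls in all 4 call sets and lay 100 nt from a day 0 PPS, while the nearest day 4 PPS was 17948 nt away. The Eif4a3 site scored 45.69 with 1 call in each call set, but touched a day 0 PPS end to end and lay 10 nt from a day 4 PPS. A site of 86 nt in the 3′ UTR of Eif4a1, the helicase that unwinds mRNA leaders for translation, scored 46.69 and touched a day 4 PPS. An intronic site of Mphosph9, a centriole protein gene, scored 45.97 and lay 951 and 1790 nt from day 0 and day 4 PPSs. A site of 217 nt in Stc2, a secreted glycoprotein hormone gene, scored 44.11 with all 4 call sets, contained 2 exon ends, and was 83 and 519 nt from the other days. Rock1, a kinase of the actin cytoskeleton, held a site of 74 nt across an exon end that scored 41.66 and touched a day 4 PPS.

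Other high-scoring sites were in predicted genes, shared sequence or introns. A site in an intron of Gm47283 on the Y chromosome scored 49.23, and 94.95% of it was annotated repeat, so reads of other copies may be among its calls. One shared by the histone gene Hist2h3c1 and Gm20634 scored 42.29, and histone genes are near-identical copies. The noncoding exon of Gm26525 held one of 42.22. Among sites with all 4 call sets, the Sh3bgrl site scored 38.69 with its neighbours 454 and 424 nt away, and the Usp9x site scored 37.1 with neighbours at 101 and 50 nt.

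Sites were counted in 20 lists of genes, as the share of a list's replicated day 2 PPSs that were day 2 only, read against 14.2% over all PPSs. A total of 3 lists lay above it. Kinesins and centromere proteins, which move and attach chromosomes, had 60 of 250 (24.0%, 19.1 to 29.7), in 26 of 43 genes, and 49 of 230 (21.3%) without Cenpp. Cenpe, a mitotic kinesin at the kinetochore, held 5. The same list gave 18.8% at day 0 and 20.6% at day 4, by the same rule on those days. Cyclins, CDKs and their inhibitors had 14 of 59 (23.7%, 14.7 to 36.0), and 9 of 50 (18%) without Cdk1. Cdkn2c, an inhibitor of the G1 kinases, held 3. Mitochondrial carriers had 42 of 167 (25.1%), and 7 of 85 (8.24%) without Slc25a21, so this list rested on 1 gene.

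By their share of PPSs, lists of red cell products lay below 14.2%. By their share of genes with a site, against 41.3% of all genes with a replicated day 2 PPS, some lay above. These were the membrane list (11 of 16, 68.75%, 44.4 to 85.8), iron (9 of 14, 64.3%, 38.8 to 83.7) and heme synthesis (4 of 8, 50%, 21.5 to 78.5). Adult globins (0 of 4) and erythroid transcription factors (6 of 17, 35.3%) lay below. A gene with more replicated PPSs has more that can be day 2 only, and shares of genes were not matched for this. The membrane list had 335 replicated day 2 PPSs in 16 genes, iron 145 in 14 and erythroid transcription factors 380 in 17. There were 36787 such PPSs and 7443 genes with 1 or more in all. Adult globins had 0 of 16 PPSs, which allows a share of up to 19.4% (Wilson upper bound). Enzymes of heme synthesis had 4 of 72 (5.56%), with 1 each in Cpox and Alad. The red cell membrane and skeleton list had 25 of 335 (7.46%, 5.11 to 10.8). Of these, 5 each were in Ank1, which joins the membrane to the spectrin network, and in Sptb, a spectrin gene. On day 4 the same rule gave 26.9% for the membrane list (184 of 683) and 25.2% for heme synthesis. Erythroid transcription factors had 13 of 380 (3.42%), with 5 in Zfpm1, the partner of GATA1, and 3 in Bcl11a, the repressor of fetal globin genes. At day 0 that list gave 14.9%, of which 49 sites were in Bcl11a. Iron uptake and storage had 12 of 145 (8.28%), with 3 in Slc11a2, an iron importer, and 2 in Ireb2, the iron regulatory protein. Progenitor and leukaemia regulators had 20 of 197 (10.2%), of which 14 were in Runx1 and 3 in Ikzf1, a lymphoid and myeloid zinc finger factor.

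Lists of RNA and protein metabolism were likewise below the share of all PPSs, with intervals that reached 14.2% in several lists. SR and hnRNP proteins, which direct splicing, had 20 of 403 (4.96%, 3.24 to 7.54), with 3 in Ptbp1. Ribosomal proteins had 14 of 202 (6.93%), translation factors 19 of 235 (8.09%), RNA helicases 18 of 212 (8.49%) and mRNA stability regulators 34 of 306 (11.1%), of which Msi2, a translational regulator, held 5. Proteasome subunits had 10 of 113 (8.85%) and ubiquitin E2 enzymes 14 of 124 (11.3%). Histone-modifying enzymes had 54 of 446 (12.1%), with 6 in Kdm3a, a histone demethylase, and the replication helicase and clamp list 5 of 41 (12.2%). Histones had 10 of 125 (8%), and hosts of small RNAs 2 of 144 (1.39%), 1 each in Snhg17 and Neat1. The median length of a list's replicated PPSs was between 67 and 113 nt, so lists were not matched in length, and the part of length in their shares was not tested.

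**Figure D5:**
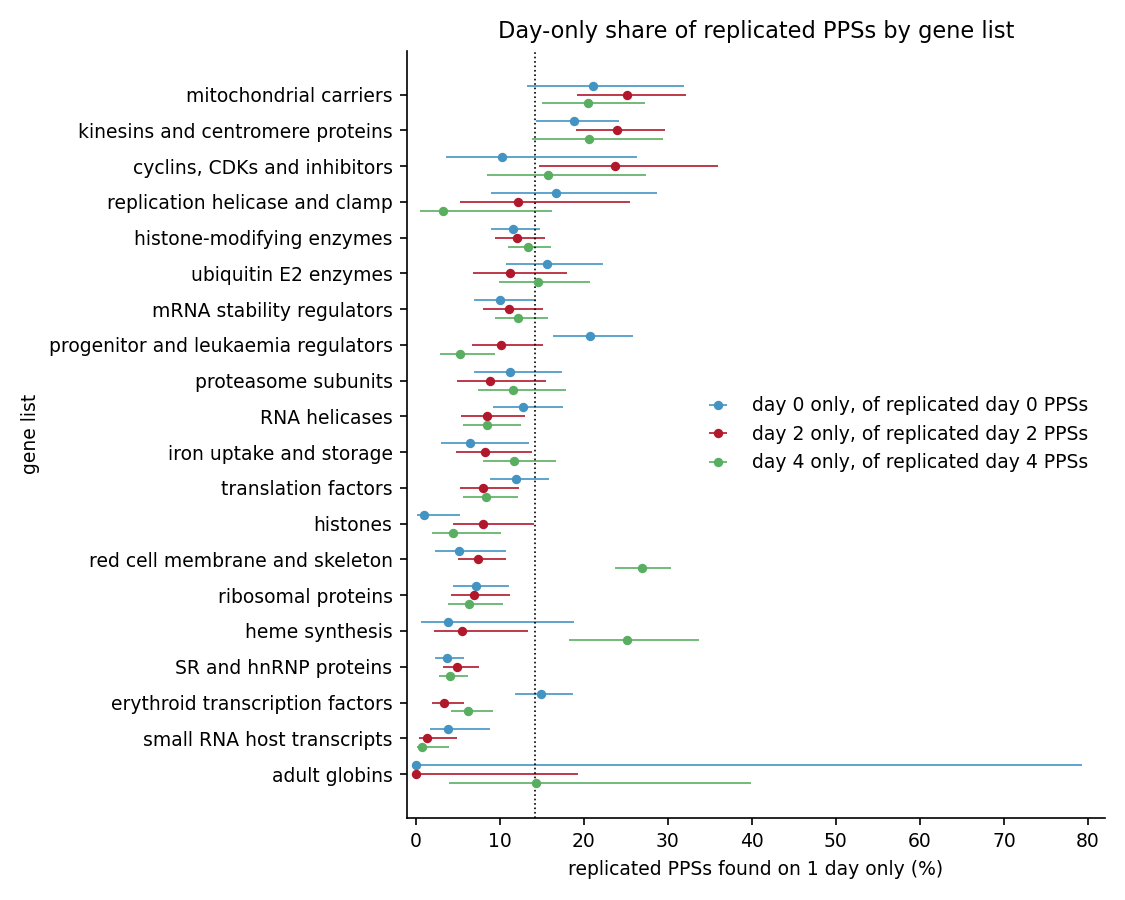
Share of replicated PPSs found on 1 day only (horizontal axis, %) in 20 gene lists (vertical axis) at day 0 (blue), day 2 (red) and day 4 (green), with Wilson 95% intervals, and a dotted line at the day 2 share over all PPSs, 14.2%. Mitochondrial carriers, kinesins and centromere proteins, and cyclins stand highest at day 2, while the membrane list reaches 26.9% at day 4.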

How the data were processed

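The authors trimmed the reads of 24 PIP-seq libraries with cutadapt 1.2.1, aligned them to mm10 with TopHat2 2.0.10, called PPSs against the libraries digested after protein removal with a modified CSAR (Poisson test, false discovery rate 5%), and deposited 1 merged list per day. The deposited score is their enrichment value, which appears from its lowest values to be summed over merged calls. The scaling of libraries is not given in the sources used here, and the lists hold no read counts, so the depth behind a site is not known from them. Call names, matched to the sample titles, gave the nuclease and replicate of each call; coordinates of single calls inside a PPS are not given there, and structure scores were not used here. All PPS ends fell inside GRCm38 chromosomes (the build mm10 names). Genes came from GENCODE M21, and sequences from the RefSeq GRCm38.p6 FASTA. Overlap meant 1 nt or more on the same strand. Shares carry Wilson 95% intervals and differences of shares Newcombe 95% intervals (Python 3.11.15, scipy 1.17.1). Differences of mean base content carry normal 95% intervals, from a standard error with a separate variance for each group. No test across replicates was run. Genes named were those with the 10 highest-scoring sites in a gene, the 8 with most sites, up to 2 per list, and the 5 highest-scoring sites with all 4 call sets. Predicted-gene symbols were named for single sites only. Some genes and sequences are not reported here. Members, lists and words were chosen with earlier results of these data known. Alternatives were the same nuclease in both replicates, other exclusion rules, score and length limits, nuclease classes, and each replicate left out. The functions were checked on simulated intervals.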

Additional observations from a re-analysis of the deposited data

Results flagged for a closer look

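The following differences between day-only and other replicated PPSs had 1 sign in both replicates of one group and the opposite sign in both replicates of the other group. None of these differences between groups was tested, and several are smaller than 1 percentage point in a replicate. The share of PPSs with dsRNase calls differed by -9.18 and -12.2 points in replicates 1 and 2 for day 2 only sites and by 6.48 and 6.77 points for day 4 only sites, a gap of -17.3 points between the mean values. Among PPSs with ssRNase calls, the plus-strand share differed by -4.05 and -4.35 points at day 2 and by 9.59 and 12.8 points at day 0, a gap of -15.4 points.

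Base content had the same kind of split. Mean A content of day 2 only sites differed by -1.004 and -1.04 points among PPSs with ssRNase calls and by -1.02 and -1.29 points among those with dsRNase calls, while both nucleases gave values above 0 at day 4 (0.25 and 0.30, and 0.25 and 0.17 points), so that the gaps were -1.30 and -1.37 points. Among PPSs with dsRNase calls, mean G content differed by 0.65 and 1.03 points at day 2, by -0.81 and -0.98 points at day 0 and, at day 4, by -0.88 and -0.77 points, which gave gaps of 1.73 and 1.67 points. Against PPSs with ssRNase calls at day 2, whose G content differed by -0.31 and -0.21 points, the gap from ssRNase to dsRNase was -1.10 points. Mean T content among PPSs with dsRNase calls differed by -0.08 and -0.79 points at day 2, with gaps of -1.07 to day 0 and -0.57 to day 4, and ssRNase exceeded dsRNase at day 2 by 1.21 points. The 3′ UTR share among PPSs with dsRNase calls differed by -1.49 and -0.66 points at day 2, with gaps of -2.09 to day 0 and -1.97 to day 4.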

How the results depend on the processing

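The number of sites (5226) was 16834 when only replicated PPSs of other days excluded and 1304 among PPSs scoring at or above the median, and ranged from 6836 to 23783 with 1 replicate of a day left out. Their share was 13.4% with the same nuclease in both replicates, 45.8% with replicated exclusion, 11.2% with 50 nt margins, 15.1% with 20 to 40 nt kept, 6.96% among these higher-scoring PPSs, and 18.6% to 28.7% with a replicate left out. In the order same nuclease, replicated exclusion, 50 nt margin and higher-scoring PPSs, the coding difference was -8.81, -1.79, -9.37 and -5.03 points, and the ssRNase-only difference 21.3, 8.001, 15.1 and 9.93 points. The whole-intron difference was 5.28, 11.03 and 5.96 points under the last 3, and the A difference -0.71, -0.95 and -0.82 points. The median length difference was -14 nt with the same nuclease and -17 nt among these higher-scoring PPSs.

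Leaving out 1 replicate gave coding differences of -12.1 to -4.65, intron differences of 6.58 to 13.5, ssRNase-only differences of 11.3 to 21.8 and A differences of -1.16 to -0.89 points, and length differences of -13 to -9 nt. Within ssRNase-only, dsRNase-only and both-nuclease PPSs, the coding difference was -5.59, 3.32 and -4.44 points and the intron difference 4.85, 2.66 and 5.54 points. The A difference was -2.74 and -0.49 points within dsRNase-only and both-nuclease PPSs, and the length difference -10 and -17.5 nt within ssRNase-only and both-nuclease PPSs. Among 41 to 80 nt, added after seeing the data, the ssRNase-only difference was 9.03 points and the A difference -1.60 points. Lists whose share of genes with a site was below that of all genes numbered 11, and 7 with replicated exclusion, and words less frequent in the sites 11, and 7 at 41 to 80 nt.

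Smaller results that turned were the 5′ UTR (1.75), exon-end (0.60) and T (-1.62) differences within dsRNase-only PPSs; the 3′ UTR difference with replicated exclusion (0.19), within ssRNase-only (0.31) and both-nuclease PPSs (0.34) and with 1 class per PPS (0.74); the dsRNase-only share without replicate 2 of day 2 (5.30); and GGTG (1.31), GGGG (0.47) and CCNCC (0.50) at 41 to 80 nt. Differences whose interval held 0 and that changed sign with an interval off 0 were GTGTG (1.23 at 41 to 80 nt) and G (-0.38 within ssRNase-only PPSs and -0.33 without replicate 1 of day 2). The cause was not tested, other than that leaving out a day 2 replicate admits unreplicated sites. No paired analysis was possible because the results are shares and counts of sites merged over replicates and come from no test, so there was no fit to block. Limits: the lists hold no read counts, PPSs are not replicates, and absence from a list is not absence of binding.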

Other observations

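The share of replicated day 2 PPSs that were day 2 only ranged from 11.4% on chromosome X to 19.1% on chromosome 13 over the autosomes and X, and was 4.15% on chromosome Y (16 of 386). Annotated repeat made up over 50% of 107 sites (2.05%, against 2.70% of the other replicated PPSs).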
